A study of Arabidopsis thaliana with 3 samples.

Results

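The cytochrome P450 genes of Arabidopsis thaliana were examined for regions of LDL1:GFP occupancy in seedling chromatin. Members were all nuclear protein-coding genes with a symbol or synonym made of CYP, a family number from 51 up, a letter and a number. The CYP86A genes were set aside. This gave 229 P450 genes of 27444 nuclear protein-coding genes, 15 of them found through a synonym alone, such as DWF4 for CYP90B1. Cytochrome P450s are haem enzymes that mostly insert an oxygen atom into a substrate, with electrons passed on by a reductase. Plants use them to make and inactivate hormones, to build lignin, pigments and the waxy and polymer layers of the surface, and to make defence compounds. Families are numbered by sequence similarity, and many P450 genes lie side by side as tandem copies.

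LDL1 belongs to the plant relatives of LSD1, a histone demethylase first known from animals. The plants were Col-0 seedlings, 14 days old and grown in long days at 22°C, that expressed LDL1 fused to green fluorescent protein (GFP) from the LDL1 promoter. An anti-GFP antibody was used for 2 ChIP libraries, each from several pooled immunoprecipitations, and 1 input library was made from the same line. All 3 libraries carry the transgene, and no untagged line is among them. The ChIP data are a single set of 5928 regions (median width 300 bp), given as coordinates without score, read count or replicate, so there is no replicate error, the depth is unknown, and none of the differences below has a test over samples. A gene is said to hold a region when a region overlaps the gene or its flanks of 1 kb. Intervals of 95% are exact Clopper-Pearson intervals over genes. They cover counting error only, and neighbouring genes are not independent.

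Of the 229 P450 genes, 23 held a region (10.0%, interval 6.47 to 14.7%), against 12.2% of all nuclear protein-coding genes. The share as a whole was therefore close to the background. A region overlapped the gene body in 16 of the 23 (6.99% of all P450 genes, against a background of 7.68%), and in the other 7 it lay beside the gene. Counting regions of the median width or more, 13 P450 genes held one (5.68%, background 5.66%). The median length was 2076 bp for P450 genes and 2078 bp for all protein-coding genes.

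Position on the chromosome moved with the share. In the outer 1 Mb of the chromosome arms, 9 of 27 P450 genes held a region (33.3%, background 33.4%), and in the rest of the arms 14 of 197 did (7.11%, background 8.77%). None of the 5 P450 genes in gene-poor bins of 1 Mb, which have fewer than 150 protein-coding genes per Mb, held a region (interval 0 to 52.2%, background 23.3%). The interval of the share in the rest of the arms, 3.94 to 11.6%, included its background.

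Within the P450 genes, the regions lay mostly at genes that stand alone. A tandem cluster was taken as a run of P450 genes with at most 2 other protein-coding genes between neighbours, whether or not they belong to the same family. The 39 clusters held 136 genes, of which 5 held a region (3.68%, interval 1.20 to 8.37%). Of the 93 single P450 genes, 18 did (19.4%, interval 11.9 to 28.8%). The 2 intervals did not overlap. The background of 12.2% lay above the interval of the clustered genes and inside that of the single genes. In the arms without the outer 1 Mb the counts were 3 of 123 clustered genes (2.44%) and 11 of 74 single genes (14.9%), and in the outer 1 Mb they were 2 of 13 and 7 of 14. The order was thus the same in both zones, on small numbers in the outer one. Genes of the same cluster are not independent, and the intervals of the clustered genes do not allow for this. Counted by locus, 4 of the 39 clusters had a member with a region, against 18 of the 93 single genes. No interval was computed for clusters as loci. The separation of the 2 intervals above is thus shown for genes only, not for loci.

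**Figure D1:**
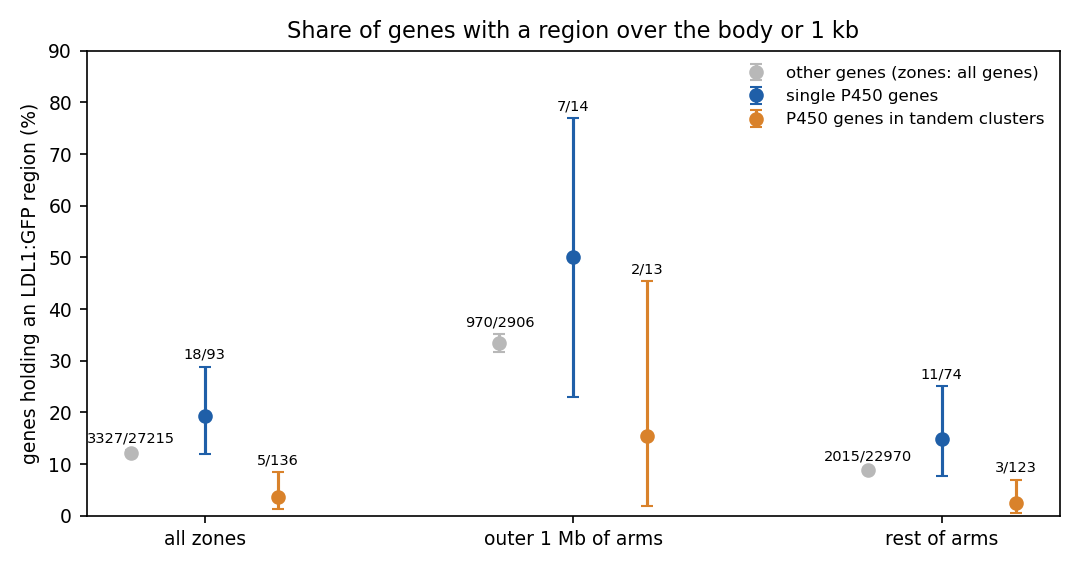
Percentage of genes that held an LDL1:GFP region over the body or the 1 kb flanks (vertical axis), for all zones, the outer 1 Mb of the arms and the rest of the arms. Points are shares with exact 95% intervals and the counts above them. Single P450 genes lie at 19.4% and clustered ones at 3.68% over all zones, on either side of the grey background. The interval of the single genes includes that background.

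The genes next to the clusters did not show a gap of that size. Neighbours were taken as protein-coding genes within 25 kb that lack a P450 name of the form used here. Near clustered P450 genes, 52 of 542 held a region (9.59%, interval 7.25 to 12.4%). Near single P450 genes, 151 of 1238 did (12.2%, interval 10.4 to 14.1%). These 2 intervals overlapped. The input intervals covered a median of 98.96% of the clustered genes with their flanks and 99.2% of the single ones, with lowest values of 95.03% and 96.3%. Input reads were thus present at both kinds of gene, but the intervals carry no depth. How reads with several matches were treated is not given in the sources used here, and tandem copies can be close in sequence; its part in the low count of the clusters was not tested.

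In 35 of the 39 clusters no member held a region. Of the 13 clusters with 4 or more genes, 12 were without one, and 2 of their 80 genes held a region in all. The run without a member that holds a region and with the most genes, CYP71B16 to CYP71B24, has 9 genes over 34.4 kb of chromosome 3 (9565627 to 9599988). The CYP72A run on chromosome 3 has 8 genes, and the mixed CYP702A and CYP705A run on chromosome 4 also has 8, across 80.0 kb. In the clusters of 4 or more genes, members with a region were thus found in a single cluster. The space between members was not always empty, since a 334 bp region (chromosome 3: 4929732 to 4930065) lay inside the CYP72A run, 2125 bp from CYP72A13.

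The cluster with such members was that of CYP81 genes on chromosome 4 (17555899 to 17598958), with 9 genes, of which CYP81F3 and CYP81F1 held a region. Both belong to the subfamily that hydroxylates the indole ring of indole glucosinolates, the sulfur-containing defence compounds of the cabbage order. The region in CYP81F3 was 330 bp wide (chromosome 4: 17584278 to 17584607) and the region in CYP81F1, which is listed as CYP91A2, was 337 bp wide (17597291 to 17597627). Each lay wholly inside its gene, with the midpoint at 18.4% and 18.9% of the gene body from the lower-coordinate end. CYP81F4, which stands between them, had its nearest region 1551 bp away. The other 6 genes of the cluster, CYP81H1, CYP81D5, CYP81D4, CYP81D3, CYP81D2 and CYP81D8, held none. The cluster lies at the border of the outer zone, with CYP81F3 0.999 Mb and CYP81F1 0.986 Mb from the chromosome end.

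**Figure D2:**
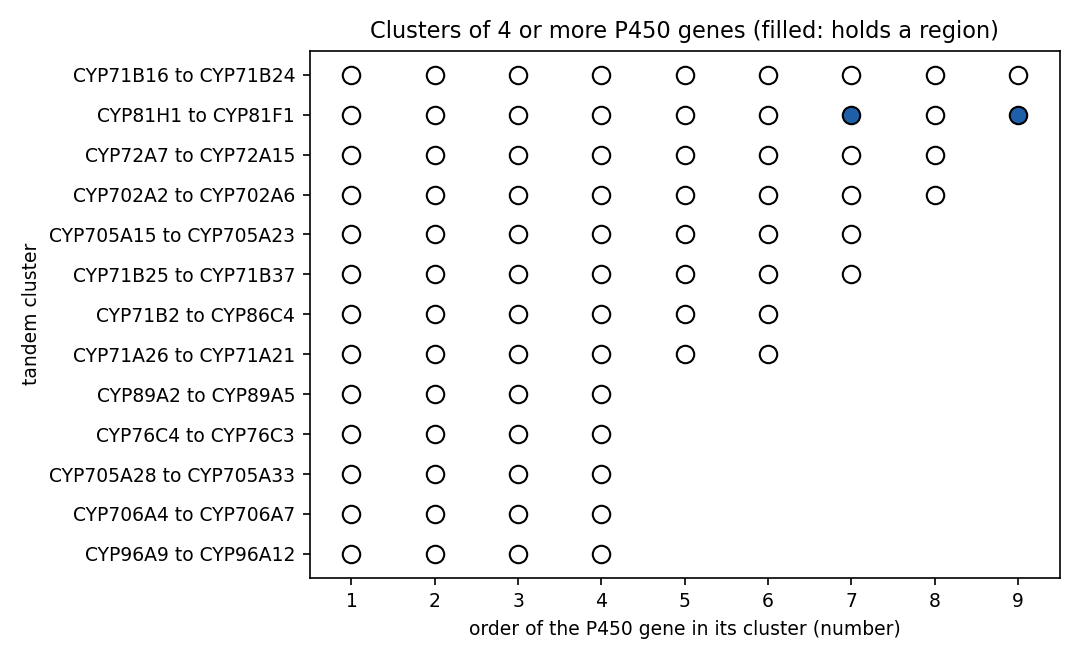
The 13 tandem clusters of 4 or more P450 genes (rows, named by their first and last gene), with each gene as a circle in chromosomal order (horizontal axis). Filled circles hold an LDL1:GFP region; only CYP81F3 and CYP81F1 are filled, at positions 7 and 9 of their row.

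The remaining 3 clusters with a region were pairs, and in each pair 1 gene held it. CYP710A1 and CYP710A2 are sterol desaturases that form stigmasterol-type sterols. CYP710A1 was overlapped by a 215 bp region (chromosome 2: 14540500 to 14540714), which lay 2944 bp from CYP710A2. In the related pair, CYP710A4 lay 893 bp and CYP710A3 1877 bp from the same region of 348 bp (chromosome 2: 12386928 to 12387275). CYP77A4, which epoxidises fatty acids, was overlapped by 2 regions of 252 and 199 bp (chromosome 5: 1336896 to 1337147 and 1337269 to 1337467), and its neighbour CYP77A9 lay 4744 bp from the nearer of them. Both regions at CYP77A4 also overlapped the body of AT5G04670.

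By family, no gene of the 2 largest families, CYP71 and CYP705, held a region. The 229 genes fell into 45 families, of which 15 had at least 5 members. In 9 of these 15 no gene held a region, and those 9 families hold 125 genes, 97 of them in clusters. CYP71, the family that includes the camalexin enzymes, had 0 of 49 (interval 0 to 7.25%, background 12.2%), with the nearest region at a median of 48.7 kb. Of its 49 genes 42 are clustered, so this count and that of the clusters rest largely on the same genes. CYP705, which includes genes of triterpene clusters, had 0 of 24 (interval 0 to 14.2%, which includes 12.2%), and 21 of the 24 are clustered. The families CYP96, CYP72, CYP76, CYP706, CYP702, CYP82 and CYP86 had none in 12, 9, 8, 7, 6, 5 and 5 genes. In CYP76, 5 of the 8 genes lie in the outer 1 Mb, and in CYP96 5 of the 12 do. The intervals of these 2 families were 0 to 36.9% and 0 to 26.5%, which include the 12.2% of all genes. In each family, 4 of the 5 outer genes form a single tandem cluster.

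A region was found in the other 6 families with at least 5 members. CYP78 had 4 of 6, CYP94 2 of 6, CYP79 2 of 7, CYP81 3 of 17, CYP77 1 of 5 and CYP89 1 of 6. Only the interval of CYP78 (22.3 to 95.7%) lay above the 12.2% of all genes, and those of the others included it. The outer 1 Mb holds 3 of the 6 CYP78 genes and 4 of the 17 CYP81 genes. The 3 CYP81 genes with a region all lie there. The 30 smaller families hold 57 genes, 10 of them with a region (background 12.2%). Among these were 2 of 4 genes each in CYP90 and CYP710. CYP78 had the highest share of the 15 larger families, and none of its genes is clustered.

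**Figure D3:**
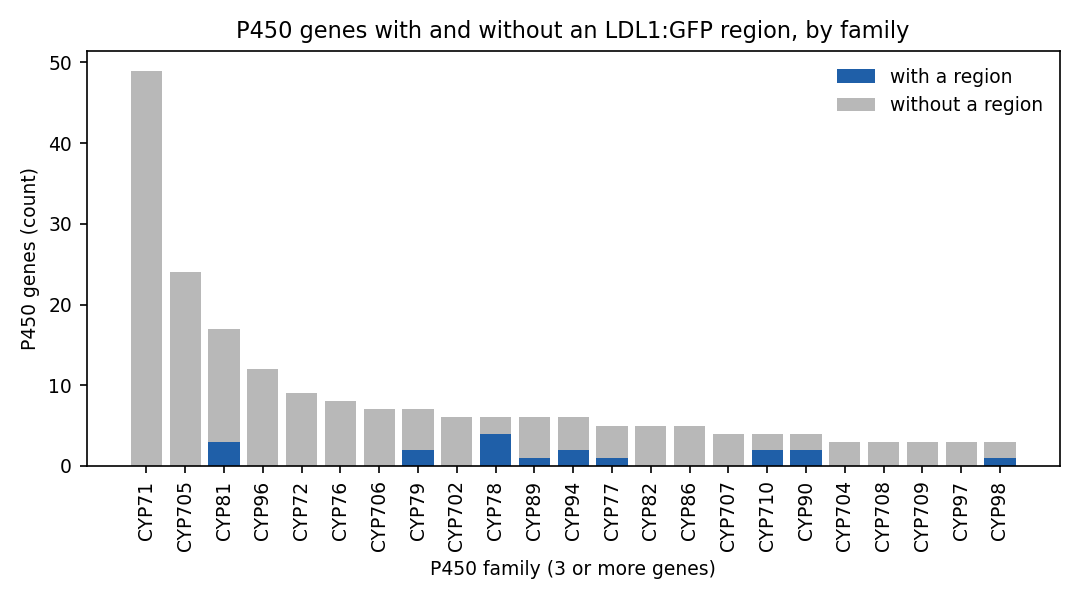
Number of P450 genes (vertical axis) with a region (blue) and without (grey) in each family of 3 or more genes, ordered by size. CYP71 with 49 genes and CYP705 with 24 are wholly grey, whereas 4 of 6 CYP78 genes are blue.

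The CYP78A genes control the growth of leaves, flowers and seeds through a product that has not been identified. CYP78A8 was overlapped by a 381 bp region (chromosome 1: 83335 to 83715). CYP78A9, which promotes seed and fruit growth, was overlapped by a 455 bp region (chromosome 3: 22906122 to 22906576). CYP78A6, also called EOD3 and a promoter of seed size, was overlapped by 2 regions of 397 and 205 bp (chromosome 2: 19153635 to 19154031 and 19155056 to 19155260). These 3 genes lie in the outer 1 Mb, at 0.083, 0.552 and 0.543 Mb from a chromosome end. In each of them a region had its midpoint between 22.4% and 27.6% of the gene body from the lower-coordinate end.

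CYP78A7, which acts with CYP78A5 in shoot development, differed from these 3. Its region, of 128 bp (chromosome 5: 3110955 to 3111082), was the narrowest at any P450 gene and lay 863 bp outside the gene, 3.11 Mb from the chromosome end. CYP78A5, known as KLUH, a gene that prolongs organ growth, lay 14.2 kb from the nearest region, and CYP78A10 14.9 kb. Both also lie outside the outer zone. All 3 CYP78A genes of the outer zone thus held a region (background there 33.4%), and 1 of 3 farther in did (background 8.77%). Without the CYP78A genes, 14 of 87 single P450 genes held a region (16.1%, background 12.2%). No interval was computed for this share, and the interval of all single P450 genes included 12.2%.

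Among the hormone pathways, regions were found at brassinosteroid and sterol genes, which stand together on a single list here. Brassinosteroids are growth-promoting steroid hormones made from plant sterols by a series of P450s. Of 13 genes on the brassinosteroid and sterol list, 6 held a region (46.2%, interval 19.2 to 74.9%). Of these 6, CYP90B1, CYP90C1 and CYP734A1 belong to brassinosteroid synthesis or inactivation, and CYP51G1, CYP710A1 and CYP710A4 act on sterols. The share of the list is thus not that of brassinosteroid genes alone, for which no separate share or interval was computed. Of the other brassinosteroid genes on the list, CYP90A1, CYP90D1, CYP85A1, CYP85A2 and CYP72C1 held none. None of the 13 lies in the outer 1 Mb. CYP85A2 lies in a gene-poor bin (background 23.3%), and the others lie in the inner arms (background 8.77%). Region width limited the count of 6: only CYP90C1 and CYP710A4 held a region of at least the median width (2 of 13, background over all zones 5.66%).

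CYP90B1, or DWF4, carries out an early and rate-limiting hydroxylation in brassinosteroid synthesis. It was overlapped by a 186 bp region (chromosome 3: 18814462 to 18814647). CYP90C1, or ROT3, a later hydroxylase, was overlapped by a 538 bp region (chromosome 4: 17189240 to 17189777), the widest at a P450 gene outside the outer 1 Mb. CYP734A1, or BAS1, inactivates brassinosteroids and was overlapped by a 185 bp region (chromosome 2: 11382542 to 11382726). Genes for synthesis and for inactivation of the hormone were thus both among those with a region. CYP51G1, a demethylase of the sterol precursors, lay 793 bp from a 255 bp region (chromosome 1: 3937375 to 3937629), which also overlapped a long non-coding RNA gene, AT1G04863. The CYP710A genes make up the rest of the 6.

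Other brassinosteroid P450s had no region. CYP90D1, which acts beside CYP90C1, lay 5.1 kb from the nearest region, CYP90A1 (CPD) 20.1 kb and CYP72C1, another inactivating enzyme, 73.4 kb. CYP85A1 and CYP85A2, which catalyse the last steps of synthesis, lay 12.3 and 9.8 kb away. Of 8 further brassinosteroid genes that are not P450s, 2 held a region (interval 3.19 to 65.1%, which includes the background of 12.2%). DET2, the steroid reductase of the pathway, was overlapped by a 481 bp region, and the receptor gene BRI1 lay 893 bp from a 351 bp region. BRI1 lies 0.256 Mb from a chromosome end. DWF1, STE1, DWF5, BIN2, BZR1 and BES1 held none.

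The P450s of most other hormones held no region. None of 5 gibberellin P450s did, namely the kaurene oxidase CYP701A3 (nearest region at 99.5 kb), the kaurenoic acid oxidases CYP88A3 (8.5 kb) and CYP88A4 (16.8 kb), and the gibberellin-inactivating CYP714A1 and CYP714A2. Nor did the 4 CYP707A genes, which break down abscisic acid and lay between 13.6 and 77.4 kb from a region. The cytokinin hydroxylases CYP735A1 and CYP735A2 lay 135.4 and 3.5 kb from a region, and the strigolactone gene CYP711A1 (MAX1) 5.4 kb. These lists are short, and a count of 0 among so few genes is a weak limit on their share.

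In the jasmonate list, 1 of 5 genes held a region (interval 0.505 to 71.6%, which includes the background of 12.2%). CYP94B3, which oxidises the active hormone jasmonoyl-isoleucine, lay 133 bp from a 207 bp region (chromosome 3: 17974514 to 17974720) that overlapped a tRNA gene, AT3G48515. CYP94B1, which shares this activity, lay 15.6 kb and CYP94C1, which carries the oxidation further, 28.3 kb from the nearest region. CYP74B2, the hydroperoxide lyase, lay 7.3 kb away. The single jasmonate P450 with a region was thus next to a tRNA gene under the same region, and it was the P450 gene lost (22 of 229 left) when regions on tRNA, snRNA or rRNA genes were set aside. CYP94D2, of the same family, was overlapped by a 229 bp region (chromosome 3: 20980005 to 20980233).

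Among further genes of these hormone pathways, outside the 229, 1 of 12 for gibberellin, 2 of 8 for abscisic acid and 2 of 9 for jasmonate held a region. Their intervals all include the background of 12.2%. The genes with a region were the gibberellin receptor gene GID1B, the abscisic acid synthesis genes ABA1 and NCED6, and the jasmonate synthesis genes AOC4 and OPR3. AOS, among the 9 for jasmonate, is itself a P450 whose name differs in form from the rule, and held none. GID1B and ABA1 lie in the outer 1 Mb and OPR3 in a gene-poor bin.

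Of the defence lists, that for glucosinolates and indoles had genes with a region and that for camalexin none, and their intervals overlapped. Of 11 genes for glucosinolates and indoles, 3 held a region, all of them in the outer 1 Mb, where the list has 4 members and the background is 33.4%. The interval of the 3 of 11 was 6.02 to 61.0%, which includes the 12.2% of all genes. CYP79B2, which turns tryptophan into indole-3-acetaldoxime for indole glucosinolates and camalexin, was overlapped by a 359 bp region (chromosome 4: 18525354 to 18525712), 0.057 Mb from the chromosome end. Its close relative CYP79B3, with the same activity, lay 21.9 kb from the nearest region. The other 2 were CYP81F3 and CYP81F1, described above, and the fourth was CYP81F4. CYP79F1 and CYP79F2, of aliphatic glucosinolate synthesis, and CYP83A1 and CYP83B1, which act after the CYP79 enzymes, held none, and neither did CYP81F2, at 84.3 kb. CYP79C2, on no list, was overlapped over its higher-coordinate end by a 252 bp region (chromosome 1: 21607835 to 21608086).

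None of the 5 P450s for camalexin and related indole compounds held a region (interval 0 to 52.2%, which includes the background of 12.2%). CYP71B15 (PAD3), which carries out the last step to camalexin, lay 20.1 kb from the nearest region, and the pair CYP71A12 and CYP71A13 lay 4.0 and 14.4 kb away. CYP71B6 and CYP82C2 lay 27.2 and 19.9 kb away. Of the 12 matched partner genes for glucosinolates and camalexin, including the regulators MYB28, MYB29, MYB34, MYB51 and WRKY33, 0 held a region (interval 0 to 26.5%). The 14 triterpene and terpene P450s were also without one (interval 0 to 23.2%), 12 of them in clusters. Both of these intervals include 12.2%. CYP705A5 and CYP708A2, of the thalianol cluster, lay 8.0 and 17.4 kb from a region.

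Phenylpropanoid P450s make the building blocks of lignin and flavonoids, and 2 of 8 held a region (interval 3.19 to 65.1%). None of the 8 lies in the outer 1 Mb, and the interval includes the 8.77% of the inner arms. CYP75B1, or TT7, a flavonoid hydroxylase, was overlapped by a 384 bp region (chromosome 5: 2562075 to 2562458). CYP98A3, the lignin-pathway hydroxylase that acts on coumaroyl esters, lay 552 bp from a 395 bp region (chromosome 2: 17057107 to 17057501) that overlapped the bodies of AT2G40860 and CYSA. The region was thus on 2 other genes and only near CYP98A3. CYP73A5 (C4H), the first P450 of the pathway, lay 56.1 kb and CYP84A1 (FAH1), of syringyl lignin, 17.6 kb from the nearest region. None of 11 matched partner genes, PAL1 to PAL4, 4CL1 to 4CL3, HCT, TT4, TT3 and LDOX, held one. The interval, 0 to 28.5%, includes 12.2%.

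For wax, cutin, suberin and the pollen wall, 2 of 7 P450s held a region (interval 3.67 to 70.96%, which includes the background of 12.2%). CYP703A2, which hydroxylates fatty acids for the sporopollenin of the pollen wall, was overlapped by 2 regions of 550 and 230 bp (chromosome 1: 112306 to 112855 and 112933 to 113162) at 0.112 Mb from the chromosome end. CYP77A4 was the other. CYP96A15 (MAH1), the alkane hydroxylase of stem wax, lay 33.3 kb from the nearest region, CYP86B1, of suberin, 36.7 kb and CYP704B1, also of sporopollenin, 70971 bp. Of 15 matched partner genes, 3 held a region (interval 4.33 to 48.1%, which also includes 12.2%). The region overlapped the gene in CUT1, which elongates fatty acids for wax, and in the acyltransferase genes GPAT6 and GPAT8 of cutin. GPAT8 lies in the outer 1 Mb, where the background is 33.4%. None of the 3 carotenoid P450s held a region, nor did ATR1 and ATR2, the reductases that supply P450s with electrons.

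Taking all 12 pathway lists, 18 of 84 listed P450s held a region (21.4%, interval 13.2 to 31.7%), and 5 of 145 unlisted ones did (3.45%, interval 1.13 to 7.86%). Of the listed genes 32 of 84 were clustered, and of the unlisted ones 104 of 145. Within the single genes, 13 of 52 listed and 5 of 41 unlisted ones held a region (25% and 12.2%). Within the clustered genes the counts were 5 of 32 and 0 of 104. The lists do not hold every P450 with a known role. They were chosen with earlier results of these data known, so listed and unlisted genes are not an independent division. The difference between them is a description only. The partner genes of the same pathways held a region in 10 of 77 cases (13.0%), close to the background of 12.2%.

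The 5 unlisted genes were CYP79C2, CYP94D2, CYP712A1, CYP89A9 and CYP81G1. CYP81G1 had the widest regions of any P450 gene, of 836 bp beside it and 619 bp over it (chromosome 5: 26854244 to 26855079 and 26855300 to 26855918), 0.118 Mb from the chromosome end. Both regions also overlapped the body of MYBR1, so they cannot be ascribed to CYP81G1 alone. CYP89A9, an enzyme of chlorophyll breakdown, lay 131 bp from a 328 bp region (chromosome 3: 824094 to 824421) over AT3G03460. CYP712A1 lay 658 bp from a 238 bp region (chromosome 2: 17599180 to 17599417) over AT2G42240.

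The 27 regions at P450 genes were 128 to 836 bp wide, with a median of 328 bp, above the 282 bp for the 2650 regions at all protein-coding genes. None exceeded 1 kb. Width moved with chromosome position: the 12 regions at P450 genes of the outer 1 Mb had a median of 370 bp (302.5 bp for 840 regions at all genes there), and the 15 in the rest of the arms a median of 238 bp (266 bp for 1410 regions). Of the 23 genes, 4 held 2 regions, CYP703A2, CYP78A6, CYP77A4 and CYP81G1 (17.4% of the 23, against 16.3% with at least 2 among all genes that held a region).

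Of the 27 regions, 19 overlapped the P450 gene itself and 18 of these lay wholly inside it. The midpoints of the 19 were a median of 505 bp from the nearer gene end (392 bp for 1846 midpoints inside all protein-coding genes), and 9 of them lay within 500 bp of an end (47.4%, against 60.9%). In 7 of the 27 cases the region also lay over another protein-coding gene, and in 17 no other protein-coding gene lay within 1 kb. The 8 regions beside a P450 gene all lay on its lower-coordinate side, whereas over all protein-coding genes 50.6% of 1704 such cases did. Gene strand was not used here, so this side is not the start or the stop of the gene.

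**Figure D4:**
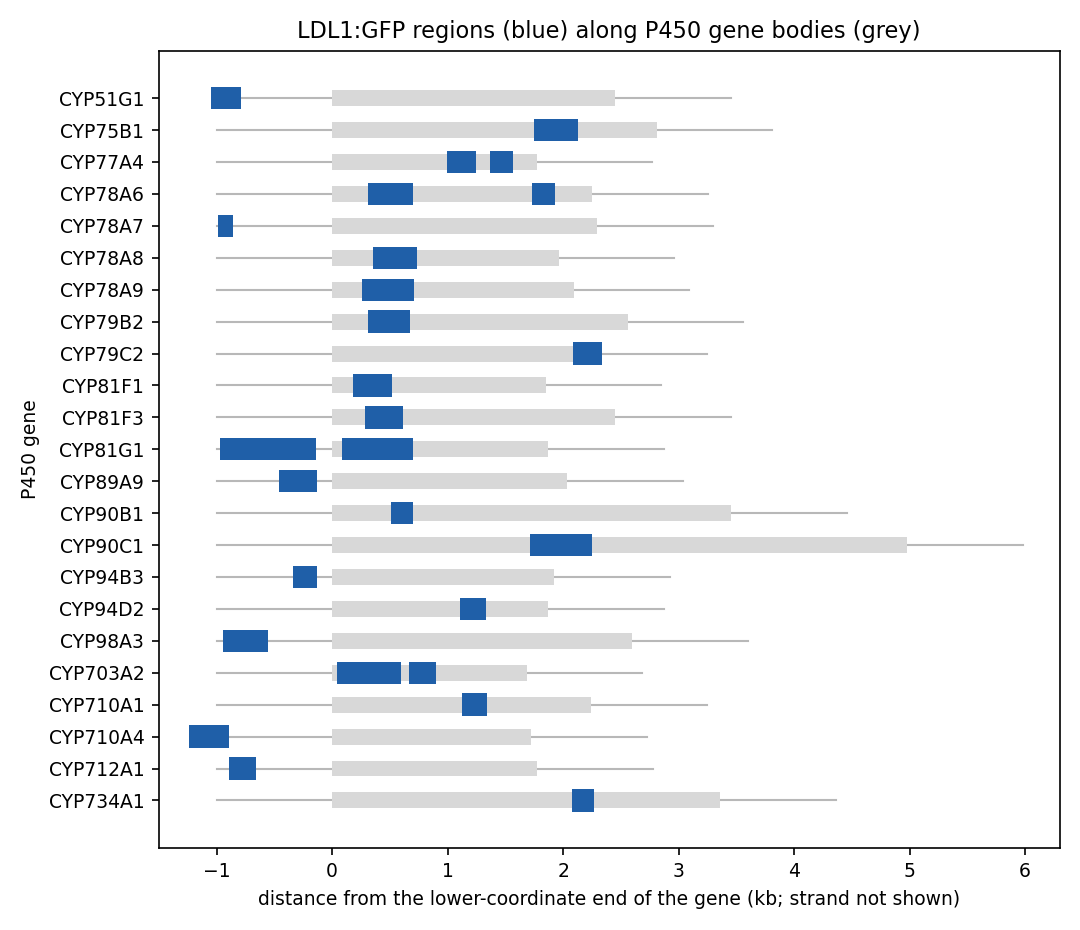
The 23 P450 genes with a region, each with its body (grey bar) and 1 kb flanks (line), drawn from the lower-coordinate end of the gene in kb; blue bars are LDL1:GFP regions to scale. Of the 27 regions, 19 overlap the grey bodies, and the 8 that do not lie left of them.

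The limit of 1 kb divided close cases. Just inside it were CYP51G1 at 793 bp, CYP78A7 at 863 bp and CYP710A4 at 893 bp. Just outside were CYP79A2, of benzyl glucosinolate synthesis, at 1057 bp, CYP76C7 at 1092 bp and CYP81F4 at 1551 bp, among 6 P450 genes between 1 and 2 kb from a region. The median distance to the nearest region was 27.4 kb for clustered and 17.6 kb for single P450 genes, against 16.6 kb for all protein-coding genes. A region was more than 20 kb away for 56.6% of clustered, 44.1% of single and 45.1% of all protein-coding genes. The farthest P450 genes were CYP71A19 and CYP71A20, a pair on chromosome 4 at 201.7 and 191.6 kb.

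**Figure D5:**
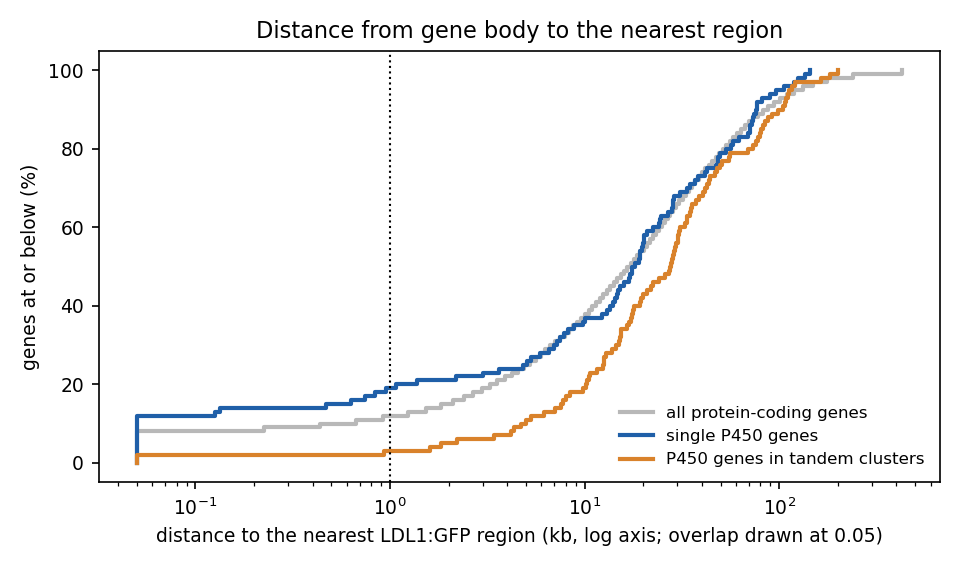
Cumulative percentage of genes (vertical axis) by distance from the gene body to the nearest LDL1:GFP region in kb (horizontal log axis, overlaps drawn at 0.05 kb, dotted line at 1 kb). The clustered P450 genes have a median of 27.4 kb, against 16.6 kb for all genes, and their curve is not to the right over the most distant genes; the curve of single P450 genes starts above that of all genes and meets it farther out.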

How the data were processed

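Deposited values were chromosome, start and end positions, with no other unit: a set of ChIP regions for both ChIP libraries and a set of input intervals, assigned by their names. Per the submitters' processing notes, the tools were Bowtie and SICER and the build TAIR10, with no version. No source used here gives the combination of replicates, the threshold or the alignment settings. The input intervals covered 98.5% of the nuclear genome and show presence of reads, not depth.

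Gene names, synonyms, biotypes and positions came from RefSeq (TAIR10.1), which has the nuclear chromosomes of TAIR10. Printed coordinates are 1-based. Strand, exons and sequence were not used here, so the planned descriptions of gene starts, promoter motifs and protein identity were not made. Of 81 partner genes, 77 were matched to a single gene; PEN2, PEN3, CCR1 and FAR1 were not.

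Members and lists were chosen with earlier results of these data known. All members with a region are named, with coordinates for the 10 widest and for list members, and also, outside that rule, for CYP79C2, CYP94D2, CYP712A1 and CYP89A9; of list members without one, a few per list are named, in part after their values were seen. The overlap search was checked against brute-force counts and tested on simulated regions placed in known genes. That simulated test looked for missed genes only. The cluster search was checked against a direct pairwise rule. Python 3.11.15, matplotlib 3.10.9, scipy 1.17.1, pandas 2.3.3 and numpy 2.4.6 were used.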

Additional observations from a re-analysis of the deposited data

How the results depend on the processing

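The share of P450 genes with a region ranged from 5.68% to 16.7% over 13 alternatives, against 10.0%. It left its interval in 2 of them: with only regions of the median width or more (5.68%) and with each tandem cluster counted as 1 locus (16.7%, 22 of 132 loci). With those wider regions, a set with fewer regions by construction, the share of single genes was 10.8%, and 11 listed P450s and 5 partner genes held a region. Of 48 further checks on single lists or families, 3 left their interval: the brassinosteroid and sterol list at 15.4% with the wider regions, and the jasmonate list at 0% with these and with gene bodies alone. Clustered genes lay below single ones under each of 6 alternatives run on both, for example 1.83% and 17.5% with no other gene between neighbours and 3.55% and 20.5% with at most 5. Alternatives with other P450 names and without the CYP78A genes (9.75% and 8.52%) were added after seeing the data. No paired analysis was possible because the regions are a single set without replicates, and leaving out a replicate was not possible for the same reason. Depth is unknown, so a gene without a region cannot be told apart from a gene below the threshold of the region set.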

Other observations

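Besides the CYP86A genes, 19 nuclear loci carry a P450 name and are not members. They are 7 protein-coding genes whose names differ in form from the rule, among them AOS (CYP74A), the first committed enzyme of jasmonate synthesis, and CYP718, and 12 transcribed pseudogenes, which the rule leaves out by biotype. None of the 19 loci held a region. AOS lay 20848 bp from the nearest region.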
